A study of Homo sapiens with 8 samples.

Results

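The genes described here are 30 genes of cholesterol and fatty acid synthesis, chosen by name from a list of the pathway and followed through 8 RNA-seq libraries of human pancreatic ductal adenocarcinoma (PDA) cells. They are 18 enzymes of sterol synthesis, 8 enzymes of fatty acid synthesis and a group of 4 called regulators here: SREBF1, SREBF2, INSIG1 and STARD4. STARD4 is a cholesterol carrier that is counted in this group although it is not itself a regulator. A row that carried the gene's name alone was found for 29 of the 30 among the 28520 rows of each table, and 28 of them were high enough to be tested, out of 12110 tested genes. The libraries came from 4 established PDA cell lines, Panc8, HPAF-II, Panc.05.04 and Panc.10.05, all labelled PDA tumor cell. In each line, cells transfected with a small interfering RNA (siRNA) against PDX1 were set against cells of the same line transfected with a control siRNA, and both were collected 3 days later. PDX1 is a homeobox transcription factor of the developing pancreas and of the adult beta cell. Each treatment of a line is represented by 1 library, and the 4 lines served as replicates of each other.

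Cells make cholesterol from acetyl-CoA by way of mevalonate, the isoprenoids and squalene, and they make fatty acids from the same acetyl-CoA by way of malonyl-CoA. Both routes are largely controlled by the transcription factors SREBF1 and SREBF2 (SREBP-1 and SREBP-2), which are made as membrane proteins of the endoplasmic reticulum. When sterols are plentiful, INSIG1 helps to hold them there, and when sterols are scarce they are carried to the Golgi, cleaved, and released to switch on the genes of both arms. SREBP-2 acts mainly on the sterol genes and SREBP-1 mainly on the fatty acid genes, usually together with the factors NF-Y and Sp1.

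Because NF-Y binds the sequence CCAAT, the 250 bases before the RefSeq start of 5 of these genes are shown, taken from RefSeq (GRCh38.p14) and written in the direction of transcription. They lie at chr7:155297628-155297877 for INSIG1, chr22:41832855-41833104 for SREBF2, chr12:109573544-109573793 for MVK, chrX:152830813-152831062 for NSDHL and chr10:100346983-100347232 for SCD, all on the plus strand. SCD and INSIG1 are shown for having the largest differences in HPAF-II, MVK and NSDHL for being among the 4 largest in Panc.10.05, and SREBF2 for encoding the sterol regulator itself. Capitals mark CCAAT on either strand (read as ATTGG on the other) and TCACNCCAC, a form of the sterol regulatory element.
INSIG1: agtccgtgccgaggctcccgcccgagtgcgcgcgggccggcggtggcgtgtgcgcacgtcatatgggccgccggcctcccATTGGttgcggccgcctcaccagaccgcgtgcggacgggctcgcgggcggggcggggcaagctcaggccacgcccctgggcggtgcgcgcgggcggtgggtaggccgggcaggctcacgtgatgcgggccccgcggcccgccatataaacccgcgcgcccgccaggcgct
SREBF2: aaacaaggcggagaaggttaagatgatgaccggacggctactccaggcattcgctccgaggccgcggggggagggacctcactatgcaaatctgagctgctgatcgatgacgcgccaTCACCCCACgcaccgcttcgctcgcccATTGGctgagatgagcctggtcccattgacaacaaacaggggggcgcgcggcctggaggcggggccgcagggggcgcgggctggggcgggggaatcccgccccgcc
MVK: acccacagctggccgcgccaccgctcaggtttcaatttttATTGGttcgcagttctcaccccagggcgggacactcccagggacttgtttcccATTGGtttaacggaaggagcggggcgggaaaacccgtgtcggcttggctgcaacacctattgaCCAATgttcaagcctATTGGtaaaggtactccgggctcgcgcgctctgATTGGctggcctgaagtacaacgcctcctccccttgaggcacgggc
NSDHL: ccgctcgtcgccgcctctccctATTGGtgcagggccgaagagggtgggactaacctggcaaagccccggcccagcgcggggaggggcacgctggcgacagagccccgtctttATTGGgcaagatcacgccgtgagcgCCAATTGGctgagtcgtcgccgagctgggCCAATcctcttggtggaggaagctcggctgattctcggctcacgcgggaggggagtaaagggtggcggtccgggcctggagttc
SCD: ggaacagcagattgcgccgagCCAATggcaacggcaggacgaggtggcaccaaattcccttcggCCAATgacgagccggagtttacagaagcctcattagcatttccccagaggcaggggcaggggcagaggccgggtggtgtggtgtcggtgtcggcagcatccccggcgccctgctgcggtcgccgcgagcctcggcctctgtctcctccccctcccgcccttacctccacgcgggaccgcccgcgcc
MVK and NSDHL held 5 matches of CCAAT each, of which 2 in NSDHL overlap as a palindrome. SCD held 2, and INSIG1 and SREBF2 held 1 each. LSS, which had the largest difference in Panc.10.05, is not shown, and its window held 1. No window was found for ACAT2, another of the large differences in that line. The sterol element was matched in SREBF2 and in no other window of the members. RefSeq windows were found for 26 of the 30 genes, 36 windows in all, since some genes have more than 1 start. CCAAT was present in 24 of the 36 windows (66.7%), against 33.0% of the 13066 windows of tested genes and 32.0% of all 35116 windows. At least 3 matches were present in 7 of the 36 (19.4%), against 4.0% of the windows of tested genes. These were windows of MVK, MVD, IDI1, FDPS, MSMO1, NSDHL and EBP, all sterol enzymes. GGGCGG, the core of the Sp1 site, was in 88.9% of the members' windows and in 63.7% of those of tested genes. TCACNCCAC was in 2.78% and 0.895%, and the E-box CACGTG in 8.33% and 8.06%. Both strands were searched, and a match is a match of letters and not a shown binding site.

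Levels are given in FPKM as the authors deposited it, which is fragments per kilobase of a gene's transcripts after scaling for the size of the library. Which method of scaling was used is not known here. A difference is the log2 of FPKM + 1 with PDX1 siRNA minus that with control siRNA within a line, and it understates differences of genes with low FPKM. Library sums of FPKM ranged over 371329 to 428778, and total depth is unknown. The steps between the smallest FPKM values put the depth with PDX1 siRNA at between 0.635 (Panc8) and 1.39 (HPAF-II) of that with control siRNA, while a less common step size would put it at 1.26 and 0.695 in these lines. PDX1 itself was at 0.372, 5.37, 0.416 and 0.0998 FPKM with PDX1 siRNA in Panc8, HPAF-II, Panc.05.04 and Panc.10.05. With control siRNA, PDX1 was at 0.914, 9.61, 1.41 and 0.188 FPKM in the same lines. It was the lower of the pair in 4 of 4 lines, at between 29.5% (Panc.05.04) and 55.9% (HPAF-II) of control, and its level in Panc.10.05 was very low in both libraries. The mean log2 ratio of PDX1 was -0.52 ± 0.30 (SD, n = 4 lines), with p = 0.125 in an exact sign-flip permutation test (two-sided), the smallest value that 4 lines allow. The epithelial markers EPCAM, KRT8, KRT18 and KRT19 summed to between 936.4 and 5031 FPKM with PDX1 siRNA and between 731.2 and 4995 FPKM with control siRNA, and KRT19 was at only 0.921 FPKM with PDX1 siRNA and 1.55 FPKM with control siRNA in Panc.05.04. Markers of liver cells (ALB, APOA1, TTR), fat cells (ADIPOQ, PLIN1, LEP) and endothelium (PECAM1, VWF, CDH5) stayed at or under 1.07 FPKM in every library, with TTR, ADIPOQ and LEP at 0. Stromal markers (COL1A1, COL1A2, COL3A1, DCN) stayed at or under 5.39 FPKM, and leukocyte markers (PTPRC, CD3E, CD14) at or under 17.3 FPKM, the highest value being CD14 in the PDX1 siRNA library of Panc.10.05.

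The genes of both arms mostly differed more between lines than between treatments, as did the tested genes in general. Over all tested genes, the paired libraries of a line correlated at 0.844 to 0.963 after group means were subtracted. DHCR7 was less clear: in Panc.10.05 it was at 80.1 FPKM with PDX1 siRNA and 113.6 FPKM with control siRNA. In the other lines DHCR7 lay between 65.0 and 101.3 FPKM. Among the lines, Panc.10.05 stood at the top. Both of its libraries lay above the other 6 for 17 of 28 genes, against 14.6% of all tested genes (and below them for 0 of 28, against 12.8%), and these were 11 of 17 sterol enzymes, INSIG1, SREBF2, ACLY, ACSS2, ELOVL6 and SCD. HPAF-II stood at the bottom, with both libraries below the other 6 for 14 of 28 genes, against 20.8% of all tested genes, and above them for 0 of 28, against 19.7%. Panc.05.04 was lowest for FDFT1, MSMO1, NSDHL, DHCR7 and INSIG1 (5 of 28, against 22.5%) and highest for PMVK, FADS1 and FADS2 (3 of 28, against 17.5%). Panc8 was highest for SREBF1 alone (against 18%) and lowest for SC5D alone (against 13.9%). These levels were set across 4 tables that may have been scaled separately, and no test was made of them. The 17 sterol enzymes together summed to 973.8 FPKM with PDX1 siRNA and 949.9 FPKM with control siRNA in Panc8. The sum was 487.2 FPKM with PDX1 siRNA and 571.8 FPKM with control siRNA in HPAF-II, 549.8 FPKM with PDX1 siRNA and 533.4 FPKM with control siRNA in Panc.05.04, and 1809.7 FPKM with PDX1 siRNA and 1931 FPKM with control siRNA in Panc.10.05. The lines did not overlap in this sum except for HPAF-II and Panc.05.04, and the control library of HPAF-II lay above both libraries of Panc.05.04.

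**Figure D1:**
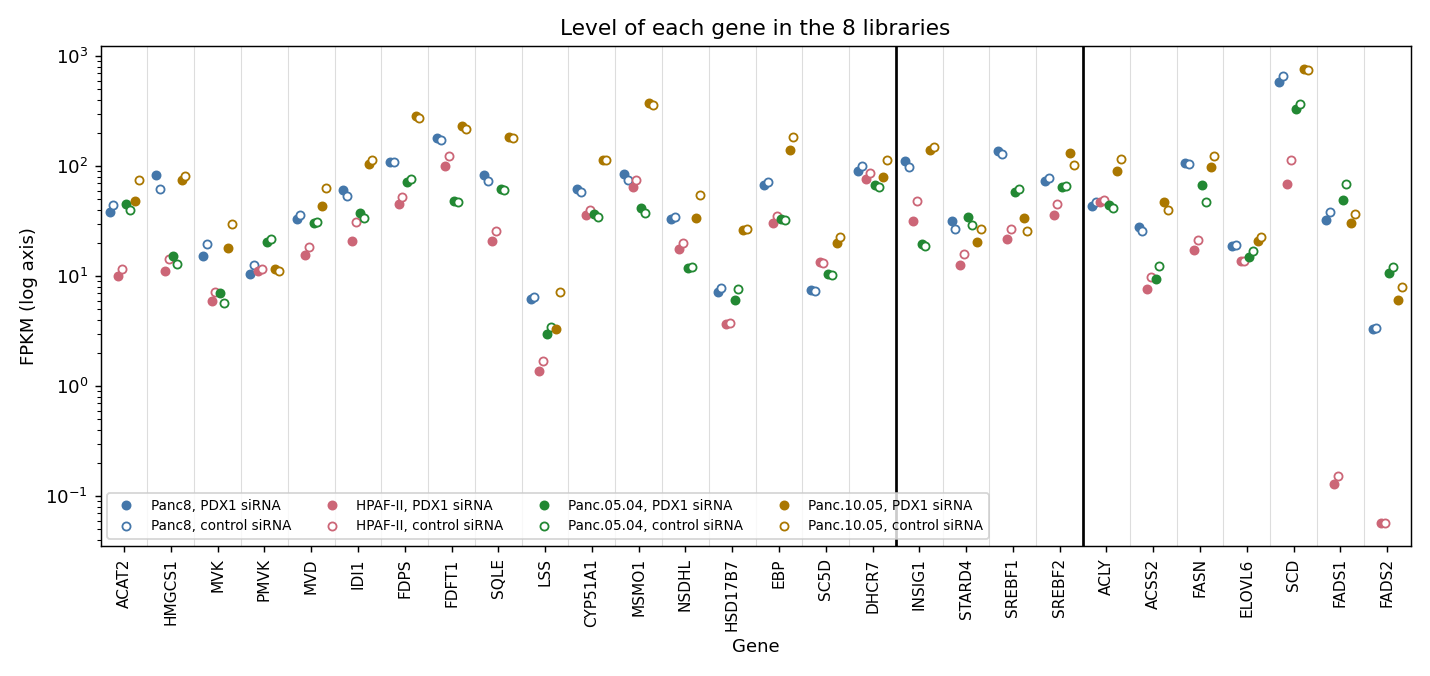
FPKM (log axis) of the 28 tested genes in the 8 libraries, with the line as colour, filled circles for PDX1 siRNA and open circles for control siRNA; black lines part sterol enzymes, regulators and fatty acid enzymes. Circles of 1 line mostly lie close together, Panc.10.05 is highest for 17 genes, and FADS1 and FADS2 lie below 0.2 FPKM in HPAF-II.

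SCD, the desaturase that makes oleic acid, was the most abundant of the fatty acid genes in every line, at 579.9, 68.8, 334 and 774 FPKM with PDX1 siRNA in Panc8, HPAF-II, Panc.05.04 and Panc.10.05. With control siRNA, SCD was at 669.8, 114, 369.8 and 758 FPKM in the same lines. Its level in HPAF-II was the lowest of the 4 lines. MSMO1, which removes methyl groups from lanosterol-derived sterols, was at 379 FPKM with PDX1 siRNA and 359 FPKM with control siRNA in Panc.10.05, and at no more than 84.6 FPKM in the 6 other libraries. LSS, which closes squalene epoxide into lanosterol, was the lowest of the tested sterol enzymes by its median over the libraries (3.39 FPKM), and a second copy of the gene on an alternate contig of chromosome 21 was listed at 0 in all 8 libraries. FADS1 and FADS2, the desaturases of long polyunsaturated fatty acids, stayed under 0.2 FPKM in HPAF-II. In the 6 libraries of the other lines FADS1 was between 30.4 and 69.6 FPKM and FADS2 between 3.30 and 12.2 FPKM. Both rows cover the same interval, chr11:61799625-61867354 of hg38. Their neighbour FADS3, named after its values were seen, was at 8.66 FPKM with PDX1 siRNA and 8.72 FPKM with control siRNA in HPAF-II.

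For 2 of the genes these tables give no usable level. ACACA, the carboxylase that makes malonyl-CoA, has a row on chromosome 17 and another on an alternate contig of the same chromosome, and neither passed 0.182 FPKM in any library. The chromosome 17 row was at 0 in both libraries of Panc.05.04 and Panc.10.05, and the alternate row at 0 in both libraries of Panc8. How reads that match both copies were counted is not stated, so these values are uncertain and no difference was read from them. TM7SF2, a sterol reductase, has no row of its own: it shares a row with VPS51, at 39.2, 55.3, 48.5 and 54.6 FPKM with PDX1 siRNA in Panc8, HPAF-II, Panc.05.04 and Panc.10.05. With control siRNA, this row was at 44.2, 39.5, 54.2 and 42.3 FPKM in the same lines. It was not counted among the tested genes. HSD17B7 has a close pseudogene, HSD17B7P2, at 1.63 FPKM or less, and the split of reads between them is uncertain. Whether reads were counted by strand is not stated, so reads of overlapping neighbours may not be told apart from those of the gene. The rows of TCP1, at up to 204.4 FPKM, and ACAT2 cover the same interval, as do those of RUSC1 (up to 46.0 FPKM) and FDPS, and of RAI1 (up to 28.4 FPKM) and SREBF1. IDI2 shares its interval with IDI1 and NREP with STARD4, at up to 2.55 and 9.64 FPKM. The members FADS1 and FADS2 share an interval with each other, at up to 69.6 and 12.2 FPKM. The split of reads within all these pairs is uncertain.

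The comparison across lines asked whether PDX1 siRNA moved these genes the same way in the 4 lines. None of the 28 passed an adjusted p of 0.05 in limma with the line as block, and neither did any of the 12110 tested genes (0% called in either direction). Adjusted values began at 0.898. Before adjustment, limma placed 245 genes on the higher and 195 on the lower side (1.61%) at p under 0.05, and of the members FADS1 alone. The genes leaned towards lower values by small amounts: the median of the mean log2 ratios was -0.09 for the 17 sterol enzymes, -0.04 for the 4 regulators and -0.12 for the 7 fatty acid enzymes, beside 0.01 for all tested genes. On average over the lines 14 of 17 sterol enzymes, 3 of 4 regulators and 7 of 7 fatty acid enzymes were below 0, as were 47.3% of all tested genes. A log2 ratio below 0 in 4 of 4 lines was found for 5 of 28 genes, against 5.8% of all tested genes, and a ratio above 0 in 4 of 4 lines for 0 of 28, against 7.45%. The 5 were MVD, LSS, NSDHL, HSD17B7 and FADS1. In HPAF-II, FADS1 was far under 1 FPKM, at 0.129 with PDX1 siRNA and 0.152 with control siRNA, a log2 ratio of -0.03. HSD17B7 was at -0.03 in both HPAF-II and Panc.10.05. When each library was centred on the median of its tested genes, the count was 8 of 28, against 7.77%, with EBP, ELOVL6 and FADS2 beside these 5.

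The early steps of the sterol route included ACAT2, HMGCS1, MVK and MVD, which lay lower with PDX1 siRNA on average except for HMGCS1. ACAT2, the thiolase that joins acetyl-CoA units, was at 38.3, 9.99, 45.2 and 48.7 FPKM with PDX1 siRNA in Panc8, HPAF-II, Panc.05.04 and Panc.10.05. With control siRNA, ACAT2 was at 44.9, 11.6, 39.9 and 75.2 FPKM in the same lines. It was lower with PDX1 siRNA in 3 of 4 lines, by most in Panc.10.05, and its mean log2 ratio was -0.22 ± 0.32 (SD, n = 4). HMGCS1, which makes the precursor of mevalonate, was at 83.3, 11.3, 15.2 and 75.4 FPKM with PDX1 siRNA in Panc8, HPAF-II, Panc.05.04 and Panc.10.05. With control siRNA, HMGCS1 was at 62.4, 14.4, 12.9 and 80.9 FPKM in the same lines. The lines stood on both sides of 0, with a mean of 0.05 ± 0.33 (SD, n = 4). MVK, mevalonate kinase, was at 15.3, 5.95, 7.11 and 17.9 FPKM with PDX1 siRNA in Panc8, HPAF-II, Panc.05.04 and Panc.10.05. With control siRNA, MVK was at 19.6, 7.23, 5.74 and 30.1 FPKM in the same lines. It was lower with PDX1 siRNA except in Panc.05.04, with a mean of -0.26 ± 0.41 (SD, n = 4). MVD, which decarboxylates mevalonate diphosphate, was at 33.2, 15.6, 30.4 and 44.0 FPKM with PDX1 siRNA in Panc8, HPAF-II, Panc.05.04 and Panc.10.05. With control siRNA, MVD was at 36.1, 18.3, 31.2 and 63.3 FPKM in the same lines. It was the lower of the pair in each line, by little outside Panc.10.05, with a mean of -0.22 ± 0.21 (SD, n = 4; limma adjusted p = 0.898). PMVK, the kinase between MVK and MVD, lay between -0.25 in Panc8 and 0.05 in Panc.10.05.

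Of the later sterol enzymes, LSS and NSDHL had the largest mean differences. LSS was at 6.15, 1.37, 2.97 and 3.31 FPKM with PDX1 siRNA in Panc8, HPAF-II, Panc.05.04 and Panc.10.05. With control siRNA, LSS was at 6.51, 1.71, 3.46 and 7.14 FPKM in the same lines. The PDX1 siRNA library was the lower in each line, by most in Panc.10.05: the mean was -0.34 ± 0.39 (SD, n = 4; limma adjusted p = 0.898) and -0.14 without that line. NSDHL, a dehydrogenase that helps to remove the sterol methyl groups, was at 32.9, 17.6, 11.9 and 34.1 FPKM with PDX1 siRNA in Panc8, HPAF-II, Panc.05.04 and Panc.10.05. With control siRNA, NSDHL was at 34.3, 19.9, 12.2 and 55.2 FPKM in the same lines. It too was lower in each line and by most in Panc.10.05, with a mean of -0.23 ± 0.30 (SD, n = 4; limma adjusted p = 0.898). HSD17B7, a reductase of the same demethylation, lay between -0.27 in Panc.05.04 and -0.03. Several steps stayed close to 0: CYP51A1, the demethylase of lanosterol, lay between -0.15 and 0.10, SC5D, a sterol desaturase, between -0.15 and 0.03, and MSMO1 between -0.20 and 0.16.

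The regulators took both directions. INSIG1 was at 111, 32.1, 19.6 and 142 FPKM with PDX1 siRNA in Panc8, HPAF-II, Panc.05.04 and Panc.10.05. With control siRNA, INSIG1 was at 99.2, 48.9, 18.9 and 151 FPKM in the same lines. The difference was largest in HPAF-II, and the mean was -0.12 ± 0.33 (SD, n = 4). SREBF1 was at 137, 21.8, 58.1 and 33.8 FPKM with PDX1 siRNA in Panc8, HPAF-II, Panc.05.04 and Panc.10.05. With control siRNA, SREBF1 was at 130.1, 27.2, 62.3 and 25.8 FPKM in the same lines. Its level was highest in Panc8, and it was lower with PDX1 siRNA in HPAF-II and Panc.05.04. SREBF2 was at 73.7, 36.4, 64.6 and 132 FPKM with PDX1 siRNA in Panc8, HPAF-II, Panc.05.04 and Panc.10.05. With control siRNA, SREBF2 was at 78.6, 45.6, 66.6 and 104 FPKM in the same lines. Both SREBP genes were lower with PDX1 siRNA in HPAF-II and higher in Panc.10.05, and their means were 0.01 ± 0.29 for SREBF1 and -0.03 ± 0.27 for SREBF2 (SD, n = 4 each); with centred libraries the mean of SREBF1 was -0.0015. STARD4, a carrier of cholesterol through the cytosol, was at 31.6, 12.6, 34.4 and 20.5 FPKM with PDX1 siRNA in Panc8, HPAF-II, Panc.05.04 and Panc.10.05. With control siRNA, STARD4 was at 26.8, 15.98, 29.2 and 26.7 FPKM in the same lines. It was higher with PDX1 siRNA in 2 lines and lower in 2, with a mean of -0.06 ± 0.33 (SD, n = 4).

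Among the fatty acid enzymes, FADS1, the delta-5 desaturase, was at 32.4, 0.129, 49.5 and 30.4 FPKM with PDX1 siRNA in Panc8, HPAF-II, Panc.05.04 and Panc.10.05. With control siRNA, FADS1 was at 38.7, 0.152, 69.6 and 36.9 FPKM in the same lines. The PDX1 siRNA library was the lower of the pair in each line, although the treatments overlapped across lines. Its mean log2 ratio was -0.26 ± 0.19 (SD, n = 4), with an unadjusted p of 0.0362 and an adjusted p of 0.898 in limma. FADS2, the delta-6 desaturase next to it, was at 3.30, 0.0575, 10.8 and 6.14 FPKM with PDX1 siRNA in Panc8, HPAF-II, Panc.05.04 and Panc.10.05. With control siRNA, FADS2 was at 3.40, 0.0571, 12.2 and 7.97 FPKM in the same lines. It was lower in the 3 lines where it passed 1 FPKM, with a mean of -0.13 ± 0.15 (SD, n = 4). ACLY, which makes acetyl-CoA from citrate, was at 43.7, 47.8, 44.0 and 90.6 FPKM with PDX1 siRNA in Panc8, HPAF-II, Panc.05.04 and Panc.10.05. With control siRNA, ACLY was at 47.8, 49.6, 41.7 and 117 FPKM in the same lines. It was lower with PDX1 siRNA in 3 of 4 lines. FASN, the fatty acid synthase, was at 107, 17.4, 68.0 and 98.3 FPKM with PDX1 siRNA in Panc8, HPAF-II, Panc.05.04 and Panc.10.05. With control siRNA, FASN was at 106, 21.5, 47.8 and 123 FPKM in the same lines. ACLY and FASN were both highest relative to control in Panc.05.04 and lowest in Panc.10.05, with means of -0.12 ± 0.18 and -0.03 ± 0.38 (SD, n = 4 each). The elongase ELOVL6 lay between -0.18 in Panc.05.04 and 0.01 in HPAF-II.

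**Figure D2:**
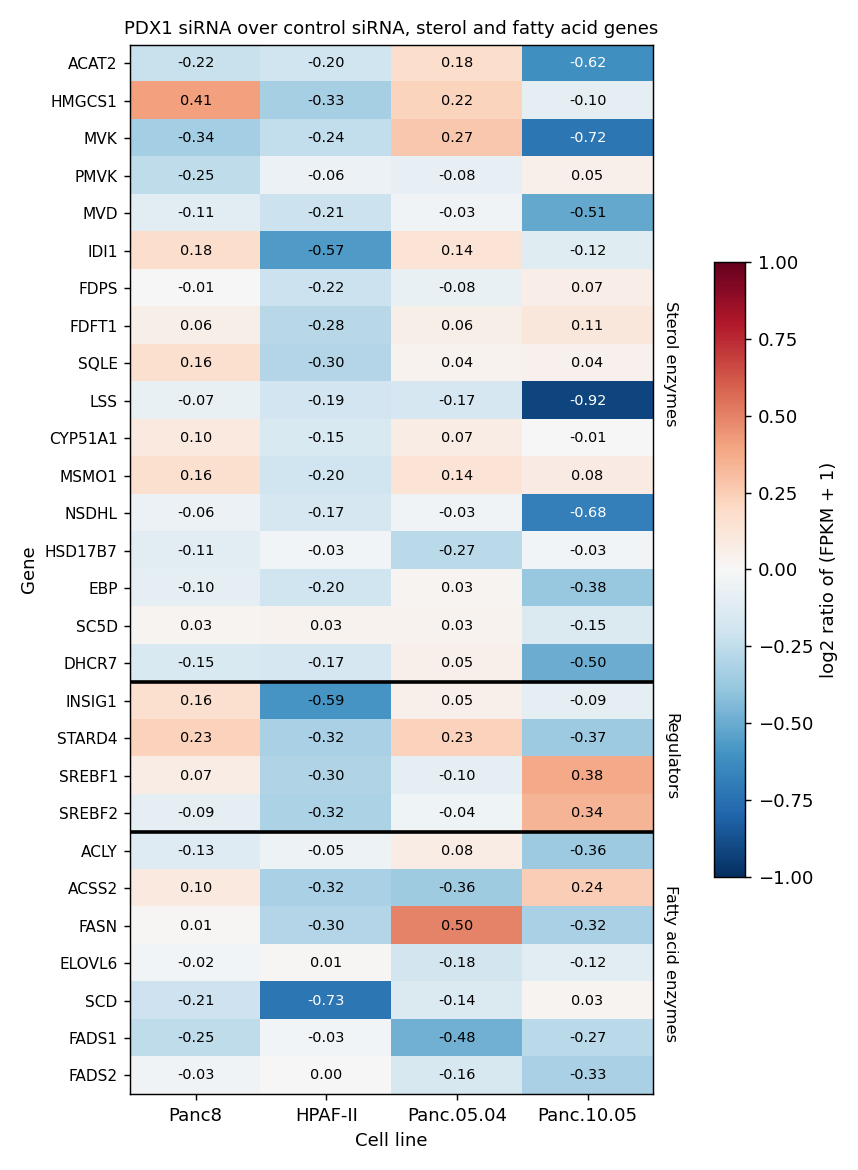
Log2 ratio of FPKM + 1 (PDX1 over control siRNA) for the 28 tested genes (rows) in the 4 lines (columns); blue is lower with PDX1 siRNA, red is higher, and 1 library stands behind each treatment of a line. HPAF-II is blue in nearly every row, while Panc.10.05 has its lowest values at LSS, MVK, NSDHL and ACAT2 and its highest at SREBF1 and SREBF2.

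HPAF-II had the most uniform pattern. With PDX1 siRNA, 25 of 28 genes had a log2 ratio below 0, against 44.7% of all tested genes in this line, and these included 16 of 17 sterol enzymes and 4 of 4 regulators. The median was -0.20 for the sterol enzymes and -0.32 for the regulators, beside 0.01 for all tested genes, and -0.05 for the fatty acid enzymes. The last median includes FADS1 and FADS2, which were far under 1 FPKM in this line and so lie near 0 on the scale of FPKM + 1. With a pseudocount of 0.1 the fatty acid median was -0.13. The differences were small. With PDX1 siRNA, SCD and INSIG1 were at least 1.5-fold lower on the scale of FPKM + 1. They were 2 of the 26 members with 1 FPKM or more, against 0.585% of all such rows, and 0 members were 1.5-fold higher, against 0.743%. IDI1, at 66.5% of control, was past 1.5-fold in FPKM itself but not on this scale. A single library stands behind each value, so no test was made.

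SCD, at 60.1% of control on the FPKM scale, had a log2 ratio of -0.73 in HPAF-II. The other lines gave -0.21 in Panc8, -0.14 in Panc.05.04 and 0.03 in Panc.10.05, so that its mean of -0.26 ± 0.33 (SD, n = 4) lies mostly in HPAF-II and was -0.11 without it. INSIG1, itself a target of SREBP and the protein that retains it, had -0.59. IDI1, the isomerase of the isoprenoid units, was at 20.8 FPKM with PDX1 siRNA and 31.3 FPKM with control siRNA, a log2 ratio of -0.57. These 3 were the lowest, and a band of enzymes and regulators lay behind them: HMGCS1 at -0.33, SREBF2, STARD4 and ACSS2, which makes acetyl-CoA from acetate, at -0.32 each, and SREBF1, FASN and SQLE, which oxidises squalene, at -0.30 each. FDFT1, which joins farnesyl units into squalene, was at -0.28. ACLY and ELOVL6 were at -0.05 and 0.01. The authors' deposited table gave unadjusted p of 0.00375 for SCD, 0.009 for INSIG1 and 0.0152 for IDI1 in HPAF-II, 3 of its 26 tested members, against 1.59% of all rows it tested there. In the other lines the authors' deposited table gave an unadjusted p under 0.05 for 0 of 28 members, against 3.04% of rows in Panc8, 3.23% in Panc.05.04 and 5.02% in Panc.10.05. The q in the authors' deposited table was at least 0.9987 for every one of these genes in every line. Those p and q compare 2 libraries and not the conditions.

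In Panc.10.05 the values of the sterol enzymes were spread widely. ACAT2, MVK, LSS and NSDHL were at least 1.5-fold lower with PDX1 siRNA (4 of 28 members, against 8.28% of all rows at 1 FPKM or more in this line), with the split of reads between ACAT2 and TCP1 uncertain, and no member was 1.5-fold higher, against 10.2%. At 2-fold on the scale of FPKM + 1, no member was past the fold in any line, although LSS in this line was at 46.4% of control in FPKM itself. The share of all rows past 2-fold was 1.71% lower and 3.09% higher in Panc.10.05, 0.166% and 0.192% in HPAF-II, 0.639% and 0.403% in Panc.05.04, and 0.197% and 1.69% in Panc8. The log2 ratio was -0.92 for LSS, -0.72 for MVK, -0.68 for NSDHL and -0.62 for ACAT2. MVD at -0.51, DHCR7, the last reductase of the route, at -0.50, and EBP, the sterol isomerase, at -0.38 lay on the same side. Between them in the pathway, FDPS, FDFT1, SQLE and MSMO1 lay between 0.04 and 0.11, and CYP51A1 and HSD17B7 at -0.01 and -0.03. FDPS, the farnesyl diphosphate synthase, was at 288 FPKM with PDX1 siRNA and 275 FPKM with control siRNA there.

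The SREBP genes of Panc.10.05 lay on the other side of 0 from these enzymes, SREBF1 at 0.38 and SREBF2 at 0.34, while INSIG1 was at -0.09 and STARD4 at -0.37. Of the fatty acid genes, ACLY was at -0.36, FADS2 at -0.33 and FASN at -0.32, whereas ACSS2 was at 47.1 FPKM with PDX1 siRNA and 39.7 FPKM with control siRNA, a log2 ratio of 0.24. Set beside all tested genes of this line, 19 of 28 members were below 0, against 50.5%, with medians of -0.12 for sterol enzymes, 0.13 for regulators and -0.27 for fatty acid enzymes.

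**Figure D3:**
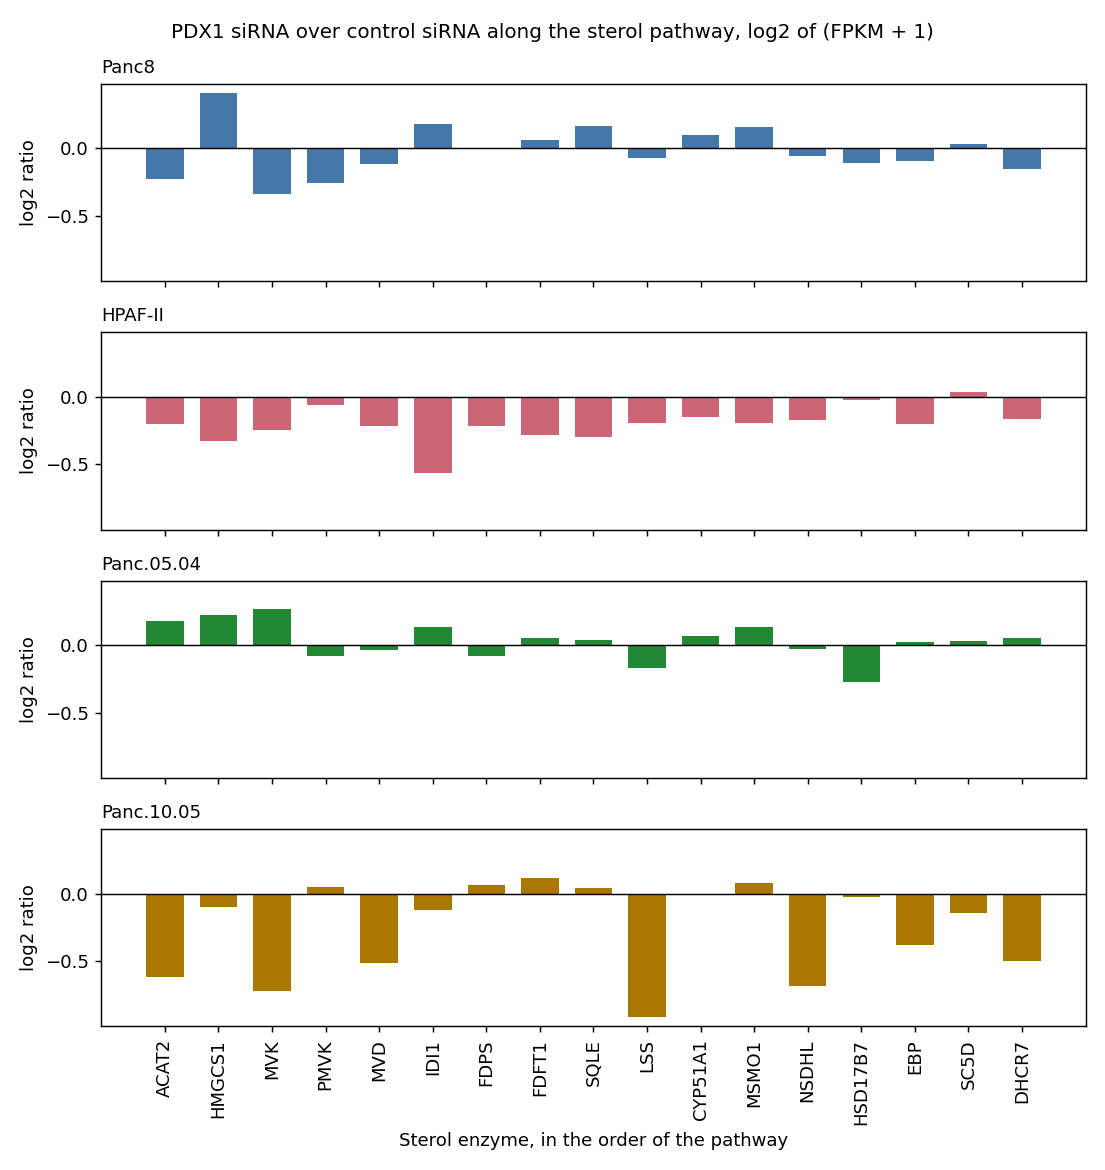
Log2 ratio of FPKM + 1 (PDX1 over control siRNA) for the 17 tested sterol enzymes in the order of the pathway, with 1 panel per line and 1 library per treatment. In HPAF-II 16 of 17 bars point down, between -0.57 and -0.03, whereas in Panc.10.05 the low bars at ACAT2, MVK, MVD, LSS, NSDHL, EBP and DHCR7 are parted by bars near 0.

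In Panc8 and Panc.05.04 no member reached 1.5-fold in either direction, against 1.27% lower and 3.59% higher of all rows in Panc8, and 2.35% lower and 1.61% higher in Panc.05.04. In Panc8 16 of 28 members were below 0, against 51.1% of all tested genes, and the sterol median was -0.06 beside 0.00 for all tested genes. HMGCS1 was the highest with a log2 ratio of 0.41, and MVK, further along the pathway, the lowest with -0.34. In Panc.05.04 13 of 28 were below 0, against 42.1%, and the sterol median was 0.04 beside 0.03 for all tested genes. The fatty acid genes of Panc.05.04 spread most: the log2 ratio was 0.50 for FASN, -0.48 for FADS1, -0.36 for ACSS2 and -0.16 for FADS2. MVK was at 0.27, opposite in sign to the other lines.

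**Figure D4:**
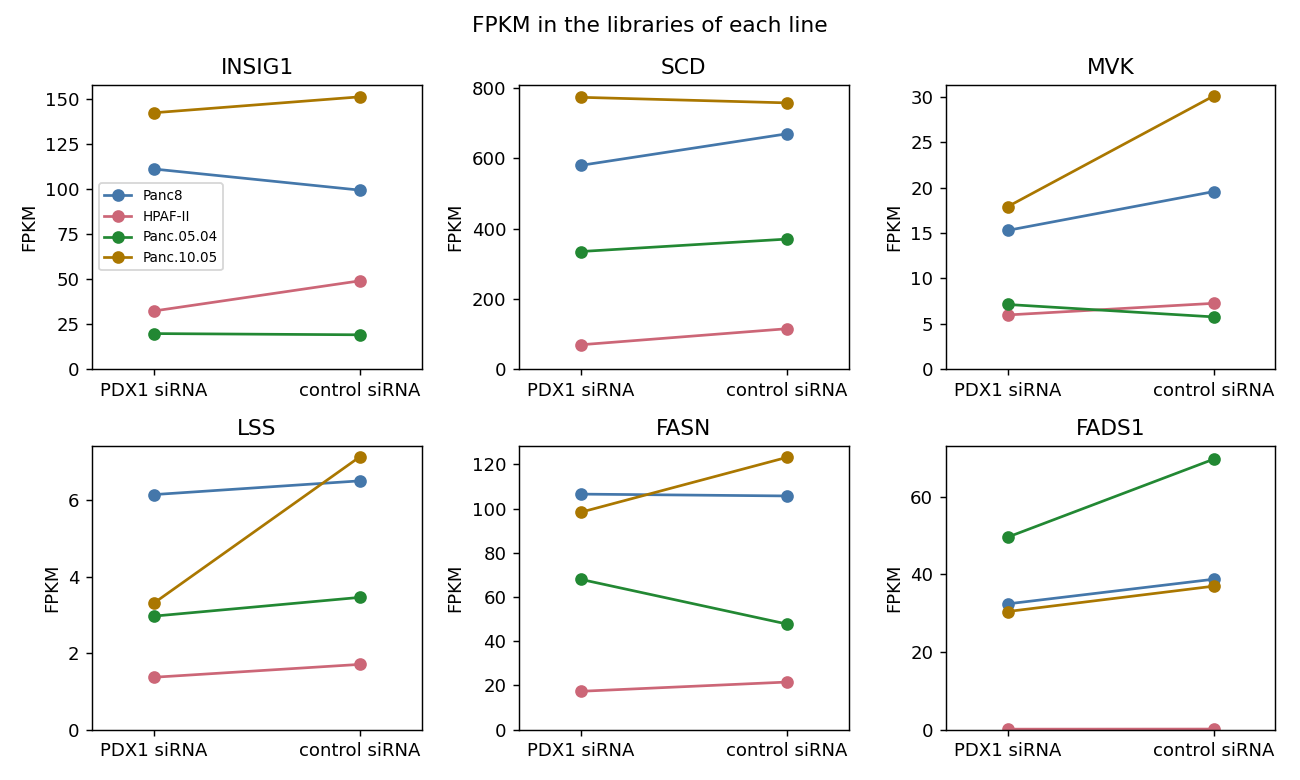
FPKM of 6 genes in the PDX1 siRNA library (left) and the control siRNA library (right) of each line, joined by a line, with axes from 0. INSIG1 and SCD are lower with PDX1 siRNA in HPAF-II by 1.5-fold or more, MVK and LSS in Panc.10.05, and FASN is higher in Panc.05.04 at 68.0 against 47.8 FPKM, while FADS1 is near 0 in HPAF-II.

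The neighbouring pathways were described from lists of genes, and no gene of the lists given here passed an adjusted p of 0.05 in limma. At an unadjusted p under 0.05 stood ACSL1 and PDK4 and, of the proliferation genes described last, PLK1, AURKA and TYMS. The medians given are of mean log2 ratios and stand beside 0.01 for all tested genes. Of the sterol sensing machinery (SCAP, MBTPS1, MBTPS2 and INSIG2) 2 of 4 were below 0 on average, with a median of -0.02, and MBTPS2, a protease that cleaves SREBP, was at 0.17 and its partner MBTPS1 at -0.12. Genes of the sterol-activated LXR receptors, efflux and esterification had a median of 0.12, with 1 of 6 tested genes below 0. By line, their median log2 ratio was 0.09 in Panc8, -0.04 in HPAF-II, -0.08 in Panc.05.04 and 0.27 in Panc.10.05. Of these genes, the cholesterol exporter ABCG1 led at 0.40 ± 0.94 (SD, n = 4). ABCG1 was at 5.38 FPKM under PDX1 siRNA and 0.858 FPKM under control siRNA in Panc8. NR1H2, an LXR receptor, was at 0.20. Intracellular sterol transport genes had a median of -0.04 with 2 of 4 below 0, led by NPC2 at -0.20 and NPC1 at -0.13, both of which carry cholesterol out of the lysosome. The isoprenoid branch had a median of 0.01 with 2 of 7 below 0, and PDSS1 and PDSS2, which make the tail of ubiquinone, were at -0.28 and -0.17.

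Fatty acid elongation and activation genes had a median of -0.04 with 6 of 9 below 0, led by the acyl-CoA ligase ACSL1 at 0.37 and the elongase ELOVL5 at -0.18. Glycerolipid synthesis genes had a median of 0.04 with 3 of 6 below 0, led by GPAM at -0.16 and LPIN1 at 0.10. Fatty acid oxidation genes had a median of 0.12 with 2 of 9 below 0. By line, their median log2 ratio was -0.13 in Panc8, 0.09 in HPAF-II, 0.03 in Panc.05.04 and 0.41 in Panc.10.05. PDK4, which turns pyruvate away from acetyl-CoA, was at 0.61 ± 0.57 (SD, n = 4), with 19.4 FPKM under PDX1 siRNA and 10.4 FPKM under control siRNA in HPAF-II, and PPARA was at 0.18.

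Other gene groups also differed between the libraries. A list of 10 proliferation genes, led by PLK1 and AURKA at -0.49 each, had a median log2 ratio of -0.22 in Panc8, -0.40 in HPAF-II, 0.01 in Panc.05.04 and -0.83 in Panc.10.05. The 17 sterol enzymes had -0.06, -0.20, 0.04 and -0.12 in the same lines. A list of 6 interferon-induced genes, led by MX1 at 1.22 and IFI6 at 1.13, had medians of 3.34 in Panc8, 0.50 in HPAF-II, -0.48 in Panc.05.04 and 0.70 in Panc.10.05. The part of growth, of interferon and of the difference in depth in the sterol values was not tested. In bulk libraries, fewer cells that express a gene and less RNA per cell cannot be told apart.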

How the data were processed

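Values were FPKM from the authors' deposited tables, 1 per line, with the authors' p-values and q-values, per the file headers. TopHat2 (version 2), Cufflinks, Cuffdiff and hg38 are named in the submitters' processing notes. Their roles, the gene annotation and the strand setting are not stated. Of 21699 rows compared with RefSeq, 6173 had a start 1 below the annotated one and 585 an equal start, so 1 was added to starts. Log2 ratios used a pseudocount of 1. limma 3.58.1 (R 4.3.3) was run on genes averaging at least 1 FPKM, with the line as block, eBayes with trend and Benjamini-Hochberg adjustment (3 residual and 2.94 prior degrees of freedom). The fit was also run on simulated data in which a changed gene moved alike in every line, and its outcome is not reported here. The pairing comes from the labels' cell lines: after subtracting group means, the paired libraries correlated at 0.844 to 0.963. The limma p-values set the mean log2 ratio against its spread over the 4 lines, after that spread is drawn towards the trend over all tested genes. The sign-flip p-value of PDX1 sets the mean against means with signs of the 4 ratios flipped. The authors' p-values hold no spread between lines. Within a line no test was possible. A member counted as past the fold at 1.5-fold on FPKM + 1 with at least 1 FPKM in either library. Total depth is unknown, so no counting interval is given; relative depth came from ratios of rows under 0.15 FPKM. Full values are given for the 4 regulators, the 5 sterol and 4 fatty acid enzymes with the largest mean log2 ratio in size, and the 2 largest members of each line (15 genes); others were added for their role. Of each neighbouring list, 2 members with the largest mean are named; 1 further list is not reported here. Alternatives were other pseudocounts, no filter, centred libraries, no block, no trend and each line left out. The members and the lists were chosen with earlier results of these data known. Tables and plots were made with pandas 2.3.3 and matplotlib 3.10.9 in Python 3.11.15, and exact tests with scipy 1.17.1.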

Additional observations from a re-analysis of the deposited data

Results flagged for a closer look

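Sets of 4 values were formed for each tested gene: the log2 of FPKM + 1 in the PDX1 siRNA libraries, the same in the control siRNA libraries, and its 4 log2 ratios. In 10 of these 84 sets, 1 line lay farther from the others than Dixon's test allows at the 95% level. The gaps given are on these log2 scales and not in FPKM. Chance alone flags about 1 set in 20, or 4.2 of 84. The sets of a gene come from the same lines and are not independent, so 10 cannot be read against 4.2 as a test. HPAF-II was the low line for FADS1, with a gap of 0.875 of the range in the PDX1 siRNA libraries and 0.849 in the control siRNA libraries. It was also low for ACAT2 with PDX1 siRNA (0.844) and for STARD4 with control siRNA (0.848). Panc.10.05 was the high line for ACLY, with 0.878 of the range with PDX1 siRNA and 0.834 with control siRNA. Panc.05.04 was high for PMVK, the phosphomevalonate kinase, with PDX1 siRNA (0.852), at 20.7 FPKM. Among the log2 ratios, FDFT1 stood apart in HPAF-II at -0.28 (0.854), LSS in Panc.10.05 at -0.92 (0.857) and SC5D, a sterol desaturase, in Panc.10.05 at -0.15 (0.967).

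HMGCS1 lay on opposite sides of 0 in different lines, past a preset fold on both sides. Its log2 ratio was 0.41 in Panc8 and -0.33 in HPAF-II, a difference of 0.742. With 1 library per line and treatment this difference was not tested.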

How the results depend on the processing

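The count of genes past adjusted p 0.05 was 0 in each direction under all 11 fits, among them the 4 that leave out a line. Without the replicate block, that is without pairing the libraries of a line, 0 genes passed. The sterol median stayed at -0.09, as it had to, because the block cannot change a mean log2 ratio in this design. The sterol median lay between -0.11 and -0.09 without 1 line, the fatty acid median between -0.18 and -0.06, and the regulator median between -0.12 and 0.05, changing sign. The count of members lower in every line used was 8 of 28 with centred libraries. It was between 5 and 10 without 1 line (10 without Panc.05.04, 9 without Panc.10.05). There it could not fall under 5, since a member lower in 4 lines is lower in any 3 of them. With 3 lines left, 8.74% to 14.4% of all tested genes are lower in each. At 2-fold on FPKM + 1, 0 members were lower in HPAF-II and 0 in Panc.10.05, where LSS was past 2-fold in FPKM itself (46.4% of control). The mean log2 ratio changed sign for SREBF1 with centred libraries (-0.0015), without Panc8 (-0.0083) and without Panc.10.05 (-0.11). It did so for HMGCS1 without Panc8 (-0.069) and without Panc.05.04 (-0.0055), for INSIG1 (0.040) and SREBF2 (0.069) without HPAF-II, and for STARD4 and FASN without HPAF-II (0.032 and 0.063) and without Panc.10.05 (0.046 and 0.072); the cause was not tested. Without Panc.10.05 the means of LSS (-0.14), MVK (-0.10), NSDHL (-0.09), MVD (-0.12) and ACAT2 (-0.08) were the smallest of any fit, and without HPAF-II that of SCD (-0.11). With a pseudocount of 5 the mean of LSS was -0.19. The means of LSS, MVK, NSDHL, MVD, ACAT2, SCD, FADS1, FADS2 and ACLY kept their sign in all 11 fits. So did that of PDX1 in the 10 that gave it a value (without HPAF-II it was under the filter on low values). The fits without the block, the trend or the filter could not change these means. Total depth is unknown and limits what can be said of genes under 1 FPKM, such as FADS1 and FADS2 in HPAF-II.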
